A study of Homo sapiens with 40 samples.

Results

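The comparison described here is that of ectopic CENP-A in SW480 cells treated with siRNAs against both HIRA and DAXX with that in control cells. SW480 is a line of human colon cancer cells, long in culture. The series holds 40 sequencing libraries, 20 of them from CENP-A ChIP and 20 from input, under 6 conditions, and each condition was deposited as 1 list of merged, replicated peaks. In both groups unfixed chromatin was digested with MNase, an enzyme that cuts between nucleosomes, and CENP-A was pulled down with ACA, a human serum against centromere proteins. The double knockdown cells were electroporated with siRNAs against HIRA and against DAXX and harvested after 72 hours, and its list merges 2 ChIP libraries. The control list merges 4 ChIP libraries from cells whose labels read untreated, while the methods name a control siRNA. Both groups come from this 1 line. A peak list holds no measure of HIRA or DAXX, so the knockdown itself could not be checked, and it holds no read depth.

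Peaks with no base in a centromere band of hg19 were called ectopic. Of 1426 deposited peaks in these lists, 1048 were ectopic, 759 of the 1018 after double knockdown and 289 of the 408 in control, out of 4416 ectopic peaks in the 6 lists of the series. A control peak was kept if it shared at least 1 base with a double knockdown peak and lost if it shared none. A double knockdown peak was shared or new by the same rule. Peaks of a list within 10 kb of each other were merged to sites. Because each condition is 1 list with no replicate values, no difference between lists could be tested. The intervals given are 95% Wilson intervals over peaks and cover counting error only. The number of libraries, and with it the depth, the read mode (single- or paired-end) and the rule for a replicated peak, cannot be told apart from the knockdown.

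CENP-A is the histone H3 variant that marks the centromere, where HJURP, its dedicated chaperone, places it so that the kinetochore can assemble. H3.3 is the replacement variant of histone H3. HIRA places H3.3 at active genes and regulatory elements, and DAXX, with ATRX, places it at telomeres and at repeats next to centromeres. Human centromeres lie in arrays of alpha satellite, some of whose repeat units hold the CENP-B box, bound by CENP-B, and satellites II and III, built on a short GGAAT unit, flank the centromeres of some chromosomes.

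Sequences from lost, kept and new peaks are shown first. They were picked for a motif, a promoter or a place on chromosome 12 and do not stand for their class. The alpha satellite core, shown in a lost peak, was in 18.1% of kept and 11.1% of lost peaks, in 300-bp windows at peak centres. The first is the 300-bp window with the most alpha satellite cores in the widest lost peak, outside genes on chromosome 16, at chr16:32549836-32550135 of hg19, plus strand, with the core CACAGAGTT in capitals. The second is the 300-bp window with the most tandem GGAAT units in a kept peak rich in them, at chr21:10835706-10836005, plus strand, with each run of at least 2 GGAAT units in capitals.

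lost, chromosome 16: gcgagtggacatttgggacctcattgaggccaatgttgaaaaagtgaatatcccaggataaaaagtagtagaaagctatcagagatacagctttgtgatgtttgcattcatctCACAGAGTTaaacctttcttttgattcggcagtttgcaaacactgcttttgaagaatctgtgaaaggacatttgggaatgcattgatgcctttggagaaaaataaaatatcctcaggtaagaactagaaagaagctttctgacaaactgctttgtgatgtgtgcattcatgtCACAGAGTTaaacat

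kept, chromosome 21: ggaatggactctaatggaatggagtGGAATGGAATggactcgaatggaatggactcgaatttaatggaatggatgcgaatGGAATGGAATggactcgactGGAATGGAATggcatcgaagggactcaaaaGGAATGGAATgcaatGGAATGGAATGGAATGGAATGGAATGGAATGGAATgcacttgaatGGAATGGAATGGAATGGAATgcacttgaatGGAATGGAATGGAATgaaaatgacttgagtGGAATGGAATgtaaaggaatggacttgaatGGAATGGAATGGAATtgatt

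The next pair are lost peaks at promoters, with each CpG in capitals. The CYLD peak covers chr16:50775693-50775919, plus strand, upstream of the gene. The H3-3B sequence covers chr17:73775862-73776093, minus strand, the part of the peak outside the gene's exons.

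lost, CYLD: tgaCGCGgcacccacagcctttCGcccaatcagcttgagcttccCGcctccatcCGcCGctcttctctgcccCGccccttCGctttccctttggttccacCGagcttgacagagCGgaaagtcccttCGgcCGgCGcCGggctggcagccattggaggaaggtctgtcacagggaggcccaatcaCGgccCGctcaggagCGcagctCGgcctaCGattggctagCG

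lost, H3-3B: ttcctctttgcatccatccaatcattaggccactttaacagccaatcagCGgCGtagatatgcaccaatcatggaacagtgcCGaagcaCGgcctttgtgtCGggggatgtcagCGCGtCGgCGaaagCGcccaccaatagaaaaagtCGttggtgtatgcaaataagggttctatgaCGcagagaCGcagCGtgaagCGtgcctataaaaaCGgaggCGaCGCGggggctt

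The last pair are new peaks in introns on the short arm of chromosome 12, again with each CpG in capitals. They lie in SOX5 at chr12:24119757-24119997 and in ITPR2 at chr12:26919396-26919695, both written on the plus strand.

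new, SOX5: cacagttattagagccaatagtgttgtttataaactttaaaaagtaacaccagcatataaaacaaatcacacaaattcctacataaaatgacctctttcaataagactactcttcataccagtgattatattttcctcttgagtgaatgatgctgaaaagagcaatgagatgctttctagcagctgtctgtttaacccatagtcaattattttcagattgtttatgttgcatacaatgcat

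new, ITPR2: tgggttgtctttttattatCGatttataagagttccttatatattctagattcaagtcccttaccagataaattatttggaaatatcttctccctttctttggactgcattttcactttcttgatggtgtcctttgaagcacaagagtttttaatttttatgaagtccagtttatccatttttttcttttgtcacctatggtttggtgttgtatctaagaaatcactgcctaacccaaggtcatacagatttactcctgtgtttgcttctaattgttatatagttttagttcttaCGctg

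The CYLD sequence held 20 CpG in 227 bases and the H3-3B sequence 19 in 232 bases. The SOX5 sequence held 0 CpG in 241 bases and the ITPR2 sequence 2 in 300 bases.

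Most control peaks were still found after double knockdown. Of 289 control peaks, 226 were kept (78.2%, 73.1 to 82.6) and 63 were lost (21.8%, 17.4 to 26.9). By sites, 71 of 102 were kept (69.6%, 60.1 to 77.7) and 31 were lost (30.4%, 22.3 to 39.9). Of 759 double knockdown peaks, 386 were new (50.9%, 47.3 to 54.4), and of 167 double knockdown sites 103 were new (61.7%, 54.1 to 68.7). The double knockdown list thus held 1.64 times as many sites as control. With peaks under 500 bp left out of both lists, the ratio turned to 0.760, and 45.1% of control peaks were kept. Over all widths the summed length of ectopic peaks was lower after double knockdown, at 301 kb against 397 kb in control. It fell on some chromosomes, from 79.5 to 30.3 kb on chromosome 16 and from 44.4 to 14.2 kb on chromosome 7. It rose on others, from 84.5 to 106 kb on chromosome 8 and from 5.05 to 16.8 kb on chromosome 2. Many new peaks filled in the surroundings of old ones, with 217 of the 386 (56.2%, 51.2 to 61.1) in a site that touched a control site. Likewise, 28 of the 63 lost peaks (44.4%, 32.8 to 56.7) lay in a site that touched a double knockdown site. The nearest control peak lay within 1000 bp of 86 new peaks, from 1 to under 10 kb from 128, and at least 10 kb from 143, and 29 new peaks lay on a chromosome with no control peak. The closest new peak lay 8 bp from a control peak.

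Double knockdown peaks were narrow. Ectopic peaks had a median width of 285 bp after double knockdown and 792 bp in control. The HIRA and HJURP double knockdown, which also merges 2 ChIP libraries, had a median of 293 bp over 1205 ectopic peaks. The 3 single knockdowns, with 4 libraries each, had medians from 750 to 902 bp. New peaks had a median of 228 bp (109 to 1282) and shared double knockdown peaks one of 360 bp (114 to 3949). In control, lost peaks had a median of 585 bp (197 to 13164) and kept peaks one of 856 bp (184 to 11857). With control peaks ranked by width and cut into 4 groups of like size, the kept share from the narrowest group to the widest was 65.8%, 77.8%, 84.7% and 84.7%.

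**Figure D1:**
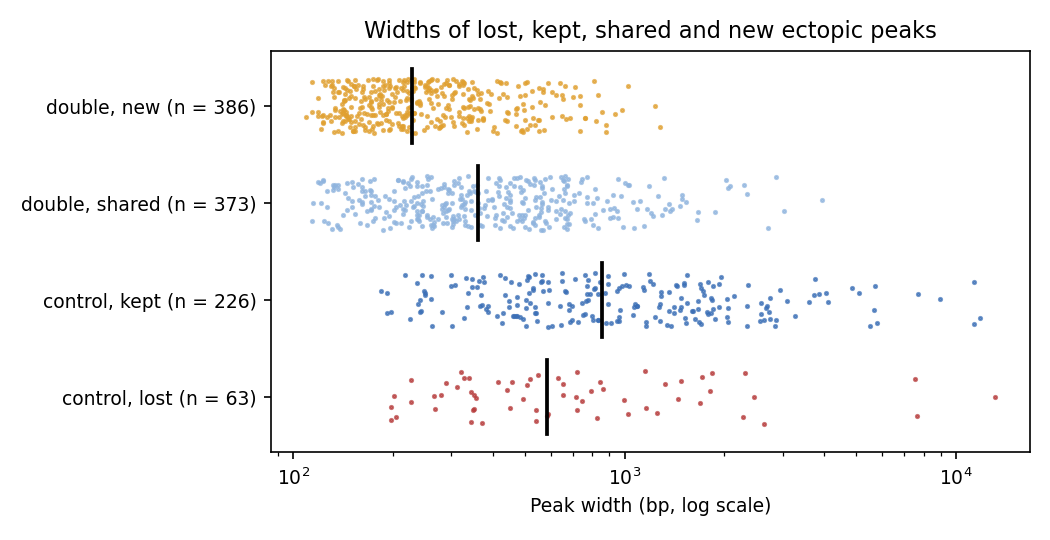
Width of each ectopic peak in bp on a log axis, by class, 1 point per peak, with a black bar at the median and vertical scatter added at random. New double knockdown peaks (median 228 bp) lie to the left of kept control peaks (median 856 bp), and the ranges overlap.

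A kept peak was seldom kept whole. Double knockdown peaks covered 175 of the 322 kb of kept control peaks (54.4%). The covered share of a kept peak had a median of 69.3% and quartiles of 46.0% and 86.3%, and 68 of the 226 were covered over less than 50% of their length. Of the 226, 150 held 1 double knockdown peak, 76 held at least 2, and 10 held at least 5. Seen from the other list, 266 of the 373 shared double knockdown peaks lay wholly inside a control peak. The 5 widest kept peaks, picked by their width in control, are given as examples only. The widest double knockdown peak was 3949 bp, so no single peak could cover any of them whole. On chromosome 7, a control peak of 11857 bp at 61903280 held 9 double knockdown peaks over 29.2% of its length. It lay 849 kb from the centromere gap and far from any coding gene, ZNF722 being nearest. Its neighbour at 61880851 (11354 bp) was covered over 16.3%, and the one at 61867692 (11375 bp) over 1.54%, the lowest share of any kept peak. On chromosome 16 a control peak of 8982 bp at 33970924 held 10 double knockdown peaks over 50.4%, and one of 7705 bp at 33980754 held 7 over 38.1%.

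Kept and lost peaks differed by place. Within 5 Mb of an assembly gap of the centromere, 151 of 189 control peaks were kept (79.9%, 73.6 to 85.0), and 40 of 58 sites. On the chromosome 8 arms, 68 of 81 were kept (84.0%, 74.5 to 90.4), and 26 of 27 sites. On the other chromosome arms 7 of 19 were kept (36.8%, 19.1 to 59.0), and 5 of 17 sites. The share of new peaks also differed by place and was highest on the other arms. New peaks made up 183 of 455 double knockdown peaks near a gap (40.2%, 35.8 to 44.8), 131 of 220 on the chromosome 8 arms (59.5%, 52.9 to 65.8) and 72 of 84 on the other arms (85.7%, 76.7 to 91.6). By sites the gap regions no longer fell below the chromosome 8 arms. There 34 of 68 sites near a gap were new (50%), 22 of 47 on the chromosome 8 arms (46.8%) and 47 of 52 on the other arms (90.4%).

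**Figure D2:**
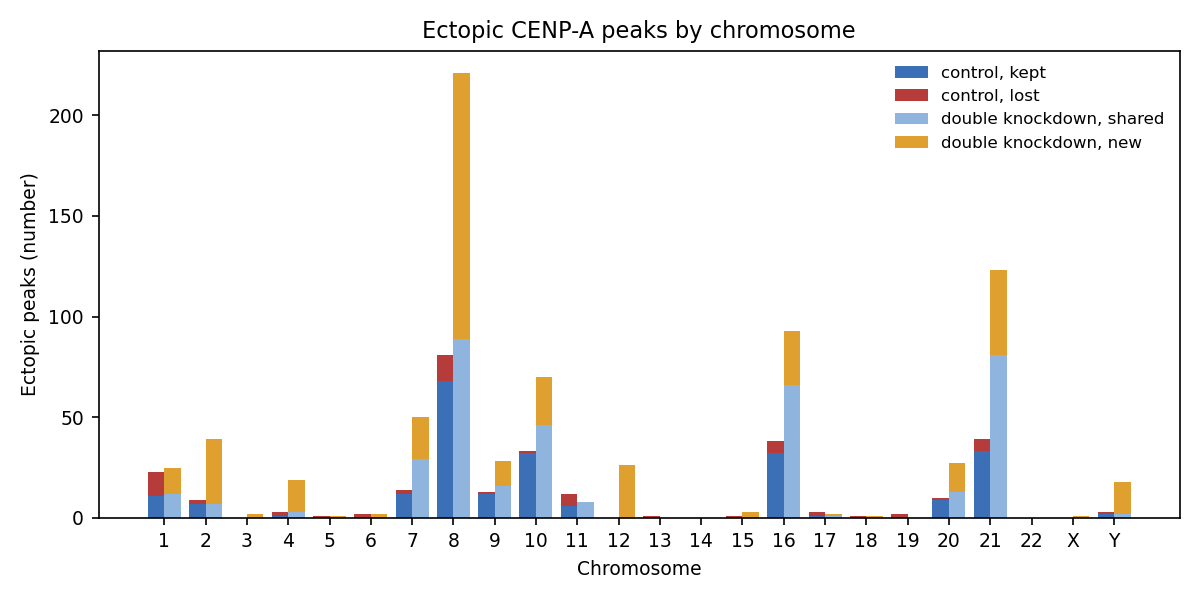
Number of ectopic peaks per chromosome, control on the left (kept and lost) and double knockdown on the right (shared and new) of each pair of stacked bars. Chromosome 8 holds most peaks in both lists (81 and 221), and chromosome 12 holds 26 new peaks and 0 control peaks.

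The kept share varied between chromosomes. Chromosome 10 kept 32 of 33 control peaks, chromosome 9 kept 12 of 13, chromosome 21 kept 33 of 39 and chromosome 16 kept 32 of 38. Chromosome 1 kept 11 of 23, and chromosome 11 kept 6 of 12 and had 0 new among its 8 double knockdown peaks. Both control peaks of chromosome 19 were lost, and no double knockdown peak lay on it. The site with the most double knockdown peaks was on chromosome 16 (46385772 to 46435604), at the edge of the centromere gap, with 61 double knockdown and 26 control peaks. On chromosome 10 the site from 42354950 held 51 against 23. Sites on chromosome 21 from 10814413 and from 10697938 held 50 against 8 and 44 against 19. In these sites the summed peak length did not follow the number of peaks. It was 19.7 kb after double knockdown against 21.3 kb in control for chromosome 16, 21.4 against 20.2 kb for chromosome 10, and 20.7 against 17.4 kb and 34.4 against 47.7 kb for the sites on chromosome 21 in the order given.

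Lost and kept peaks differed at promoters. Of the 63 lost peaks, 10 (15.9%, 8.86 to 26.8) held the transcription start of a protein-coding gene, against 0 of 226 kept peaks (up to 1.67%) and 0 of 759 double knockdown peaks, of which 0 of 386 new (up to 0.985%). All 10 control peaks of this kind were thus lost, where 21.8% of all control peaks were lost. The promoter count was chosen after values had been seen. These 10 peaks lay at HP1BP3, a heterochromatin-associated protein related to linker histones, ID2, an inhibitor of basic helix-loop-helix transcription factors, DCUN1D4, which acts in cullin neddylation, and H3-3B, which encodes H3.3 itself. They lay also at MIB1, a ubiquitin ligase of Notch signalling, PPP2R1A, the scaffold subunit of the phosphatase PP2A, HSPA13, a member of the heat shock protein 70 family, and 3 starts shared by gene pairs. The pairs were AIMP2 with PMS2 (a tRNA synthetase complex scaffold and a mismatch repair protein), IFT20 with TNFAIP1 (a protein of transport in cilia and a ubiquitin ligase adaptor), and MED29 with PAF1 (a Mediator subunit and a subunit of an elongation complex).

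The promoter peaks were not only narrow ones. The HSPA13 peak on chromosome 21 (15754393 to 15757035, 2643 bp) and the HP1BP3 peak on chromosome 1 (21111100 to 21113558, 2459 bp) were among the 5 widest of all lost peaks. The MED29 and PAF1 peak on chromosome 19 (39881015 to 39882495) was 1481 bp wide, the DCUN1D4 peak on chromosome 4 (52708312 to 52709470) 1159 bp, and the MIB1 peak on chromosome 18 (19319941 to 19320966) 1026 bp. The H3-3B peak on chromosome 17 (73775636 to 73776093) was 458 bp and the ID2 peak on chromosome 2 (8822050 to 8822246) 197 bp, the lowest width among lost peaks. With peaks under 500 bp left out, 6 of the 10 remained. None of the 10 had a double knockdown peak within 10 kb. With starts up to 1 kb from the peak, lost peaks also lay at STARD7, a lipid transfer protein, CYLD, a deubiquitinase of NF-kappaB signalling, and POU5F1B, a retrogene of the pluripotency factor OCT4, and DCUN1D4 had a further lost peak, for 14 in all. The 2 kept peaks within 1 kb of a start were at FAM72B and CDC27, which both have near-identical copies elsewhere in the genome.

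Promoter peaks were rare in the other knockdown lists too. The HIRA and HJURP double knockdown had 0 among 1205 ectopic peaks, DAXX knockdown 1 among 759, HJURP knockdown 1 among 763 and HIRA knockdown 4 among 641. Of the 10 control promoter peaks, 8 were in none of these 4 lists, and those at H3-3B and HSPA13 were in the HIRA knockdown list alone. All of these lists are set against the same control list. The 300-bp windows at the 10 peaks had a median GC content of 61.2% (35.7 to 70.3) and a median of 26 CpG, against a GC median of 39% over all lost peaks, 36.3% over kept and 36.7% over new peaks.

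Lost peaks that overlapped gene bodies away from the start included a peak of 2276 bp on chromosome 5 at EGR1, an immediate early transcription factor. It covered 326 bases of the gene's exons. EIF4G3, a translation initiation factor, held a lost intronic peak of 1838 bp. PRIM2, a DNA primase subunit with a near-identical partial copy, had 2 lost intronic peaks (1691 and 1256 bp). The same gene also held 2 new peaks (215 and 305 bp), 1 of them 681 bp from the lost peak of 1691 bp. By annotation, 36 of 63 lost peaks lay in a gene of any type (57.1%, 44.9 to 68.6), against 70 of 226 kept peaks (31.0%, 25.3 to 37.3). Exons of coding genes were overlapped by 12 of 63 lost peaks and 1 of 226 kept peaks. The 3 widest lost peaks lay outside genes on chromosome 16, from 1275 to 2744 kb from the centromere gap. They were at 32549157 (13164 bp, 123 kb from TP53TG3), 34003350 (7664 bp) and 32534344 (7547 bp). The one at 34003350 lay in a site that was kept.

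Of gene names for CENP-A, H3.3 and proteins that help place them, 15 of the 17 listed were found in the annotation. Of these 1, H3-3B, held an ectopic peak in either list. The names not found, H3F3A and H3F3B, are older symbols of H3-3A and H3-3B, which were found. None of the 16 inner kinetochore genes found (of 17 listed) held one. Among name families frequent next to centromeres, 3 of 5 symbols starting with FRG1 held a kept peak and 4 of 5 a new one. These symbols include the non-coding FRG1-DT, and FRG1JP and FRG1KP overlap, so that 1 kept peak counts for both. No POTE, TP53TG3, HERC2P or DUX4L gene held a peak of any class, 2 of 684 ZNF genes held a new peak, and of 391 FAM genes 1 (FAM72B) held a kept peak and another (FAM242A) a new one. Of all 62259 gene names in the annotation, 0.0626% held a lost, 0.0418% a kept and 0.0932% a new peak. Of 114 ANKRD genes, 1 held a lost, 2 a kept and 2 a new peak, and of 2262 LINC genes 2, 4 and 5 did.

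The 8q24 region, where MYC lies, held many of the new peaks. The chromosome 8 arms held 131 of 386 new peaks (33.9%), 89 of 373 shared ones (23.9%) and 68 of 226 kept control peaks (30.1%). Most new sites on these arms were also in other knockdown lists. Those from 127929087 (13 peaks) and from 128296872 (7 peaks) were in all 4, and the site at 126915392 in none. PCAT1, a long non-coding RNA gene annotated over a wide span there, held 39 control peaks, of which 33 were kept, and 122 double knockdown peaks, of which 82 were new. Its new peaks added up to 28250 bases and its lost peaks to 2994 bases. The site with the most peaks there, on chromosome 8 from 128034640 to 128107637, held 41 double knockdown and 19 control peaks, with 25.5 against 19 kb of peak. CASC8, another non-coding RNA gene, went from 4 peaks in control (1 kept) to 16 (13 new), and POU5F1B from 2 (1 kept) to 13 (10 new). LINC00861, LINC02964 and CASC19 had 23, 12 and 22 new peaks and 8, 4 and 12 kept ones. PVT1 held 2 control peaks, both kept, and 0 new peaks. No peak of either list lay in MYC, the transcription factor gene, and the nearest was 387 kb away in control and 335 kb after double knockdown. CASC11 beside MYC held none, and CCAT2 held 0 control peaks and 1 new peak. Genes of this region overlap, so 1 peak may count for several of them.

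The most kept bases outside 8q24 in a coding gene were in DHX32 on chromosome 10, an RNA helicase family gene, with 3 kept peaks over 3672 bases.

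New peaks elsewhere on the arms formed a few groups. At the end of the long arm of chromosome 4, a region of 837 kb (190194884 to 191032275), delimited by its outermost new peaks after the values had been seen, held 15 new peaks and 0 in control, with 8 of them in FRG1-DT, a non-coding gene beside FRG1. There the other lists held 23 peaks (HIRA and HJURP double knockdown), 12 (DAXX), 10 (HJURP) and 6 (HIRA). KMT2C on chromosome 7, a histone H3 methyltransferase gene with near-identical partial copies, held 6 new peaks and 0 control peaks. Its sites from 151975868 and from 152099453 were in all 4 other lists. The site at 152079610 was in the DAXX list and the HIRA and HJURP list, and the site at 151941764 in none. On chromosome 2, the site from 89830455 to 89879991 held 29 double knockdown peaks, 23 of them new, over 15.0 kb, against 6 control peaks over 3.06 kb. It also held 27 peaks after HIRA and HJURP double knockdown, 20 after HIRA, 19 after DAXX and 12 after HJURP knockdown. Exons of coding genes were overlapped by 7 of the 386 new peaks (1.81%, 0.881 to 3.70), among them peaks at SEC22B, MED21, ABCC9, KMT2C, LMNTD1 and POU5F1B. The widest new peaks were intronic in PCAT1 (1282 and 980 bp) or lay outside genes on chromosome 21 (1237 bp, with TPTE nearest), chromosome 2 (1026 bp) and chromosome 8 (936 bp, with LRATD2 nearest).

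Chromosome 12 had no ectopic control peak and 26 ectopic peaks after double knockdown, each a site of its own. Of these, 25 lay between 21892017 and 27412855 on the short arm, a segment of 5.52 Mb whose near end is 7.44 Mb from the centromere gap, with a median spacing of 113 kb. The segment was delimited after the values had been seen. Within it 21 peaks lay in protein-coding genes, with 6 in SOX5, a transcription factor of cartilage and neural development, and 4 in ITPR2, a receptor channel that releases calcium from stores. LMNTD1 held 3, and ABCC9, a subunit of potassium channels, held 2. The peaks were narrow, from 141 to 569 bp with a median of 214 bp, and 16 of the 26 were at least 200 bp wide and 1 at least 500 bp.

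The same segment was marked in every knockdown list, at other positions. HIRA knockdown had 60 peaks there (median 690 bp), HJURP knockdown 32 (527 bp), DAXX knockdown 21 (565 bp) and the HIRA and HJURP double knockdown 20 (170 bp). Of these, 2, 3, 1 and 1 touched a peak of the HIRA and DAXX double knockdown. Of the 26 chromosome 12 peaks, 20 were in none of the other lists. Of all 53 new peaks in none of the other lists, chromosome 12 held 20 and chromosome 2 held 7, with 4 or fewer on any other chromosome.

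**Figure D3:**
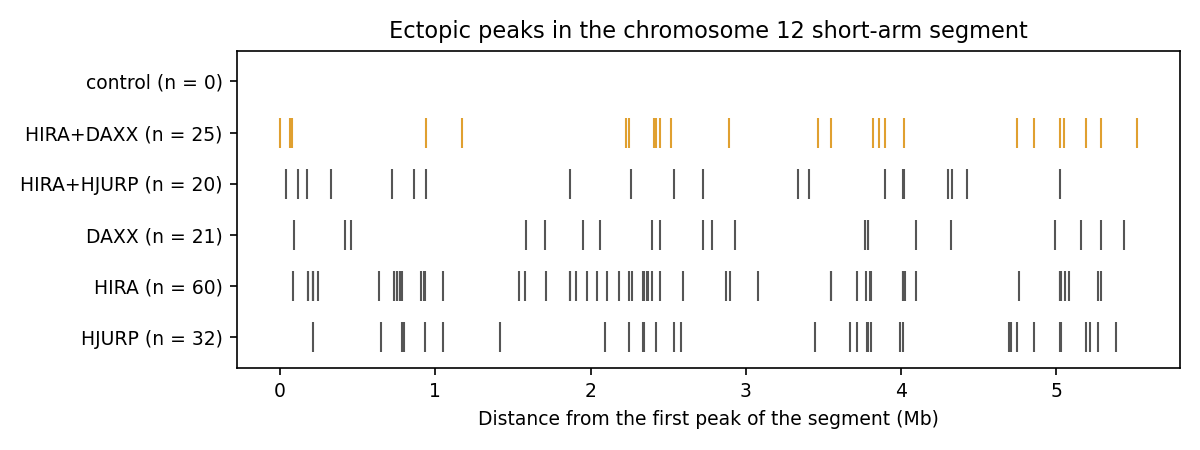
Ectopic peaks in the chromosome 12 short-arm segment, 1 tick per peak at its distance in Mb from the first double knockdown peak, 1 row per condition. Control has 0 peaks, the HIRA and DAXX double knockdown 25 spread over the whole segment, and HIRA knockdown the most with 60.

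The alpha satellite core was in 3.11% of new and 18.1% of kept peaks, and none of the 63 lost peaks held a pair of GGAAT units. Motifs were counted on both strands in 300-bp windows at peak centres. A pair of GGAAT units in a row, the repeat on which satellites II and III are built, was in 96 of 386 new peaks (24.9%, 20.8 to 29.4), in 68 of 373 shared double knockdown peaks (18.2%), in 36 of 226 kept peaks (15.9%, 11.7 to 21.3) and in 0 of 63 lost peaks (up to 5.75%). Over whole peaks the new and kept shares were close, at 23.6% (19.6 to 28.1) and 21.7% (16.8 to 27.5), with 19.8% of shared and again 0 of 63 lost peaks. In the windows near centromere gaps it was in 87 of 183 new peaks (47.5%, 40.4 to 54.8) and 36 of 151 kept peaks (23.8%, 17.7 to 31.2). There it was also in 68 of 272 shared peaks (25%) and in 0 of 38 lost peaks (up to 9.18%). Of all 300-bp windows of the reference 0.151% held it, and 0.474% of those near gaps. The alpha satellite core CACAGAGTT was in 12 of 386 new peaks (3.11%, 1.79 to 5.35), 41 of 226 kept peaks (18.1%, 13.7 to 23.7) and 7 of 63 lost peaks (11.1%, 5.49 to 21.2), against 0.520% of genome windows and 1.96% of those near gaps. Over whole peaks it was in 2.85% of new, 26.5% of kept and 22.2% of lost peaks (14 of 63). The CENP-B box was in 1 of 386 new peaks (0.259%), 16 of 226 kept peaks (7.08%) and 7 of 63 lost peaks (11.1%), against 0.0192% of genome windows and 0.159% of those near gaps. Peaks of 1 satellite block share their sequence and are not independent of each other, and the mapping quality filter removes reads that fit several repeat copies equally well.

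**Figure D4:**
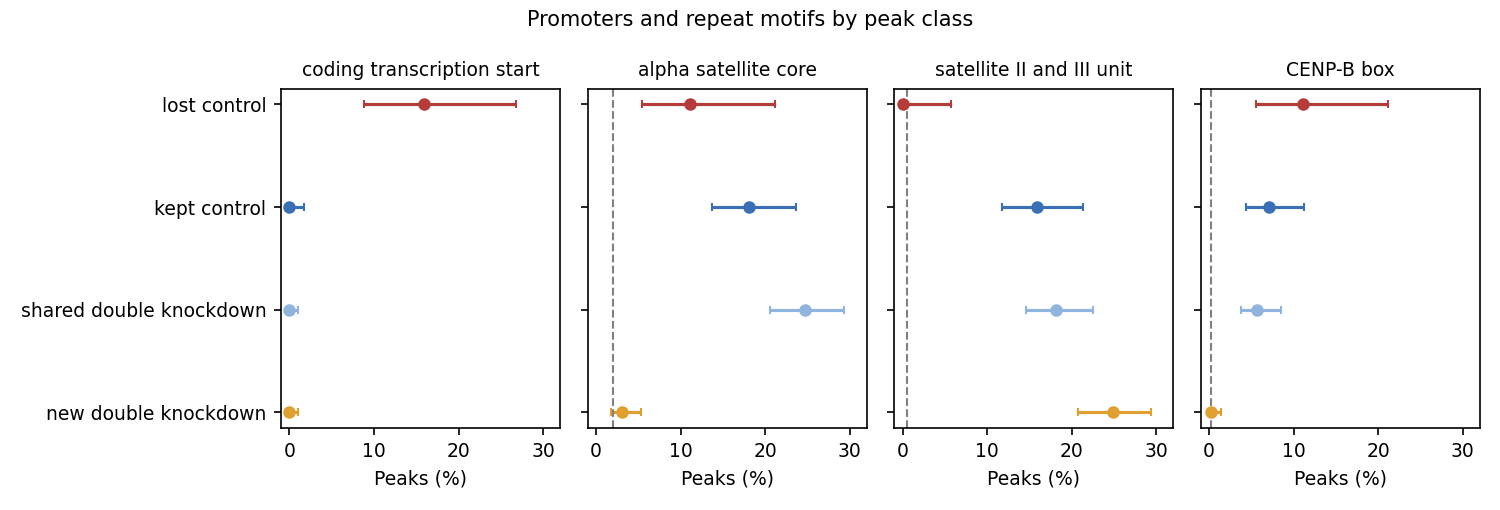
Share of peaks (%) in each class that hold a protein-coding transcription start (in the peak) or a motif (in the 300-bp window), with 95% Wilson intervals. Dashed lines give the share of reference windows within 5 Mb of a centromere gap, and 15.9% of lost peaks hold a start, while 24.9% of new and 15.9% of kept peaks hold the satellite II and III unit, a gap that narrows to 23.6% and 21.7% over whole peaks.

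Set beside the other knockdowns, all compared with the same control list, the HIRA and DAXX double knockdown kept the fewest control peaks. It kept 226 of 289, against 251 in DAXX, 247 in HIRA, 239 in HJURP and 247 in the HIRA and HJURP list, and 71 of 102 control sites against 74, 81, 74 and 74. New peaks made up 50.9% of its list, against 73.6%, 60.7%, 71.4% and 68.5%. No test of these differences was possible.

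Peaks kept after double knockdown were mostly present throughout, with 196 of the 226 (86.7%, 81.7 to 90.5) in all of the other 4 lists and 0 in none. Lost peaks were mixed, with 16 of 63 in all 4 other lists (25.4%, 16.3 to 37.3) and 17 in none (27.0%, 17.6 to 39.0). Those 17 were control peaks that no knockdown list held. By sites, 14 of 31 lost sites were in none of the other lists, and the HIRA knockdown list held the most, 14, against 6 for DAXX, 6 for HJURP and 7 for HIRA and HJURP. Among new peaks, 333 of 386 (86.3%, 82.5 to 89.3) were in at least 1 other list and 132 (34.2%, 29.6 to 39.1) in all 4. The HIRA and HJURP list held 274 of them, DAXX 266, HJURP 220 and HIRA 216. These lists differ in size, with 1205, 759, 763 and 641 ectopic peaks in that order. All 373 shared double knockdown peaks were in at least 1 other list.

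**Figure D5:**
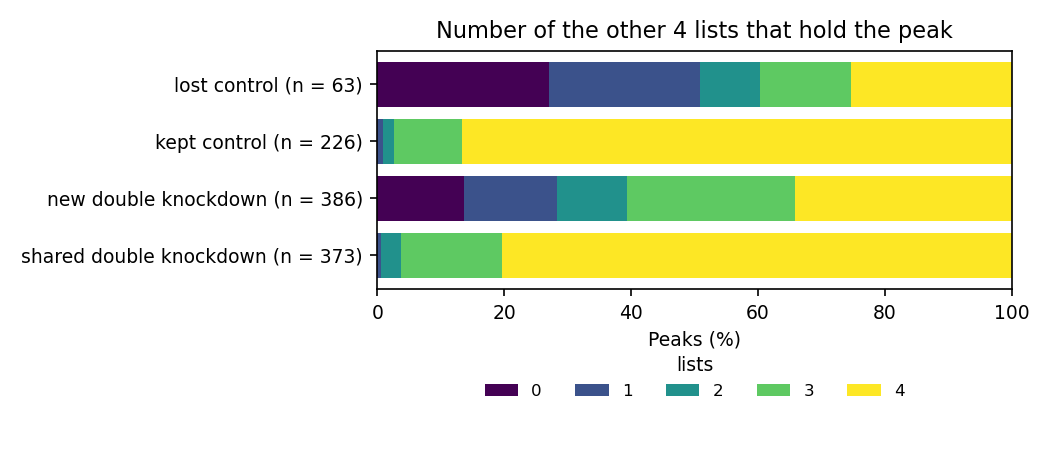
Share of peaks (%) in each class by the number of the other 4 knockdown lists that share at least 1 base with the peak, from 0 to 4. Kept control peaks are in all 4 lists in 86.7% of cases, and lost peaks in 25.4%.

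Inside the centromere bands, which the ectopic lists leave out, 79 of 119 control peaks were kept (66.4%, 57.5 to 74.2) and 122 of 259 double knockdown peaks were new (47.1%, 41.1 to 53.2).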

How the data were processed

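CENP-A ChIP and input were sequenced in SW480 cells under 6 conditions. Per the labels and methods, the authors used Trimmomatic for trimming and Bowtie2 2.2.6 for alignment to hg19, dropped alignments of mapping quality under 10, called peaks per library with MACS against input and merged peaks of replicates that recurred in at least 3. The rule for the 2 libraries of a double knockdown is not given in the sources used here. The deposited lists hold only chromosome, start and end of each merged peak, with no score, count or depth.

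Ectopic peaks, overlaps and sites were computed in Python 3.11.15 with numpy 2.4.6, pandas 2.3.3 and scipy 1.17.1, figures with matplotlib 3.10.9, and the reference was indexed with samtools 1.23.1. The overlap code was tested on simulated data. Centromere band positions were written from general knowledge of hg19, and a centromere gap was a stretch of N no shorter than 2 Mb that met a band. Genes are from the GENCODE annotation lifted to GRCh37, whose chromosomes are those of hg19. Members, gene lists and the rule for named genes were chosen with earlier results of these data known. The rule took the 8q24 genes, the widest lost, kept and new peaks, genes with the most lost, kept or new bases, the sites with most peaks and coding genes with an overlapped exon, of which 1 is not reported here. The promoter, chromosome 12, chromosome 4 and motif results were added after seeing the data. Alternatives were peak width, overlap, merge distance, boundary and region choices.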

Additional observations from a re-analysis of the deposited data

How the results depend on the processing

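With peaks under 500 bp left out, 45.1% of control peaks were kept (78.2% with all), 32.8% of double knockdown peaks were new (50.9%), 48% of control sites were kept (69.6%), 29.8% of double knockdown sites were new (61.7%), and the site number ratio turned from 1.64 to 0.760. The same width left 6 of 10 lost promoter peaks and 1 of 26 new chromosome 12 peaks, of which 16 were at least 200 bp wide. With peaks extended by 500 bp on each side, 83.0% of control peaks were kept, 39.5% of double knockdown peaks were new and 87.9% of kept control bases were covered (54.4%), since extension adds bases to both lists. With an overlap of at least 50% of the peak, 54.7% of control peaks were kept. With peaks within 1000 bp merged, 58.7% of double knockdown peaks were new. Without chromosome 8, 47.2% of double knockdown peaks were new and 60% of control sites were kept. With peaks nearer than 5 Mb to a gap left out, 66.8% of peaks and 69.7% of sites were new. The cause of the other shifts was not tested. Of 60 values under alternatives, 43 stayed within the interval, or 1.5 times, of the main value, 16 fell outside and 1, the site number ratio, turned. A share that crossed 50% did not count as turned. This holds for the 45.1% of control peaks and 48% of control sites kept without peaks under 500 bp. Values on promoters, chromosome 12 and motifs were chosen after seeing the data. No replicate could be left out and no depth limit could be set, since each list is already merged. No paired analysis was possible because each condition is 1 merged list and no result comes from a test.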
